A study of Homo sapiens with 23 samples.

Results

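The genes described here are the ligands BMP2, BMP4, BMP6 and BMP7, the antagonist NOG, the receptors BMPR1A, BMPR2 and ACVR1, and the signal transducers SMAD1 and SMAD5 of the bone morphogenetic protein (BMP) pathway. They were chosen by symbol, and all 10 were present among the 60564 genes listed for each library. The study cultured Caco-2 cells, a human colorectal adenocarcinoma line used as a gut model, and HepG2 cells, a human hepatocellular carcinoma line used as a liver model, in separate chambers of a microfluidic chip (the integrated gut-liver-on-a-chip, iGLC). Each line was kept without the other (mono-culture) or joined to it by shared circulating medium (co-culture). Either was done with or without 1 mM free fatty acids (FFAs, palmitic and oleic acid) for 1 day. The study also cultured single lines under circulating medium. Poly(A) RNA of each line was sequenced apart, giving 23 libraries. Caco-2 has 3 libraries each of mono-culture control, mono-culture with FFAs and co-culture with FFAs and 2 of co-culture control (11 in all), and HepG2 has 3 of each of these 4 groups (12 in all). The sources differ on the treatment medium, since the labels give a low-serum medium and the methods of the study a serum-free medium with albumin. Each line is 1 tumor-derived model. The study calls its replicates biological and its sequencing experiments independent, while the labels do not say which libraries came from separate cultures, so p-values measure the spread between these libraries.

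BMPs are secreted dimers of the transforming growth factor beta (TGF-beta) family that act on neighboring cells. A BMP dimer binds a complex of type I receptors (BMPR1A and ACVR1 among them) and type II receptors (BMPR2), and the type I receptor then phosphorylates SMAD1 and SMAD5, which join SMAD4 and enter the nucleus. Noggin, encoded by NOG, binds BMPs outside the cell and blocks this contact. In the intestine BMP signaling is known for limiting crypt stem cells and favoring villus differentiation. In the liver it is known for driving hepcidin (HAMP), the hormone that limits iron uptake, with BMP6 from endothelial cells as the main ligand.

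All values are in TPM, a level scaled to transcript length and to a fixed total per library, so that genes can be compared with each other. In the GENCODE v44 annotation of GRCh38, BMP2 lies on chromosome 20 from 6767686 to 6780246, BMP7 on chromosome 20 from 57168753 to 57266641, BMP4 on chromosome 14 from 53949736 to 53958761, and BMP6 on chromosome 6 from 7726099 to 7881728. NOG lies on chromosome 17 from 56593699 to 56595611. ACVR1 and BMPR2 lie on chromosome 2, from 157736251 to 157876330 and from 202376327 to 202567751, and BMPR1A on chromosome 10 from 86756596 to 86932825. SMAD1 lies on chromosome 4 from 145481194 to 145559176 and SMAD5 on chromosome 5 from 136132845 to 136188747. The end of BMP6 overlaps TXNDC5 on the opposite strand, which ranged from 125 to 186 TPM in Caco-2 and from 447 to 636 TPM in HepG2. The library kit is not stated to keep strand, so the BMP6 values, which did not exceed 0.90 TPM, are uncertain. Other genes that overlap members on the opposite strand were lower. The pseudogene H3P8 within the span of BMPR2 reached 3.39 TPM in Caco-2 and was listed at 0 in every HepG2 library. Whether it lies over an exon of BMPR2 was not examined, so whether the genes share reads is not known. ENSG00000287156 over BMP4 reached 1.66 TPM, SMAD5-AS1 1.23 TPM, RPAP2P1 within BMPR1A 0.36 TPM and SMAD1-AS2 0.34 TPM, and SMAD1-AS1 and BMP7-AS1 were listed at 0.

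The libraries carried the defining markers of their lines. In Caco-2, VIL1, CDH17, CDHR5, CDX2 and MYO1A exceeded 38 TPM in every library, SI and LGALS4 were lower and CDX1 did not exceed 0.18 TPM. VIL1 (153 to 244 TPM) and MYO1A (8.77 to 21.4 TPM) were also present in every HepG2 library, where the other 6 did not exceed 3.17 TPM. All 8 liver markers were at least 1227 TPM in every HepG2 library, and all 8 were also detected in every Caco-2 library at lower levels, ALB from 321 to 769 TPM among them. Of 8 fibroblast, endothelial and blood markers, COL1A1 (27.4 to 47.4 TPM), PDGFRA (11.2 to 19.5 TPM) and PECAM1 (2.02 to 8.38 TPM) were the highest in Caco-2, and COL1A1 reached 5.70 TPM in HepG2. COL3A1 and DCN did not exceed 3.61 TPM, and CDH5, VWF and PTPRC did not exceed 0.59 TPM, in any library. RNA of the other line was followed by genes that separate the mono-culture controls (50 TPM or more in all 3 libraries of one line, no more than 1 TPM in the opposite 3), summed as a percent of the level in their own line. The 34 HepG2 genes summed to 0.10 to 0.183% in mono-cultured Caco-2 libraries and to 0.0883 to 2.08% in co-cultured ones, with the highest values in co-culture with FFAs replicate 1 (2.08%) and co-culture control replicate 1 (0.825%). The 62 Caco-2 genes, from which BMP7 was left out, summed to 0.129 to 0.244% in mono-cultured and 0.190 to 0.615% in co-cultured HepG2 libraries. In bulk libraries fewer cells of a type and less RNA per cell cannot be told apart.

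**Figure D1:**
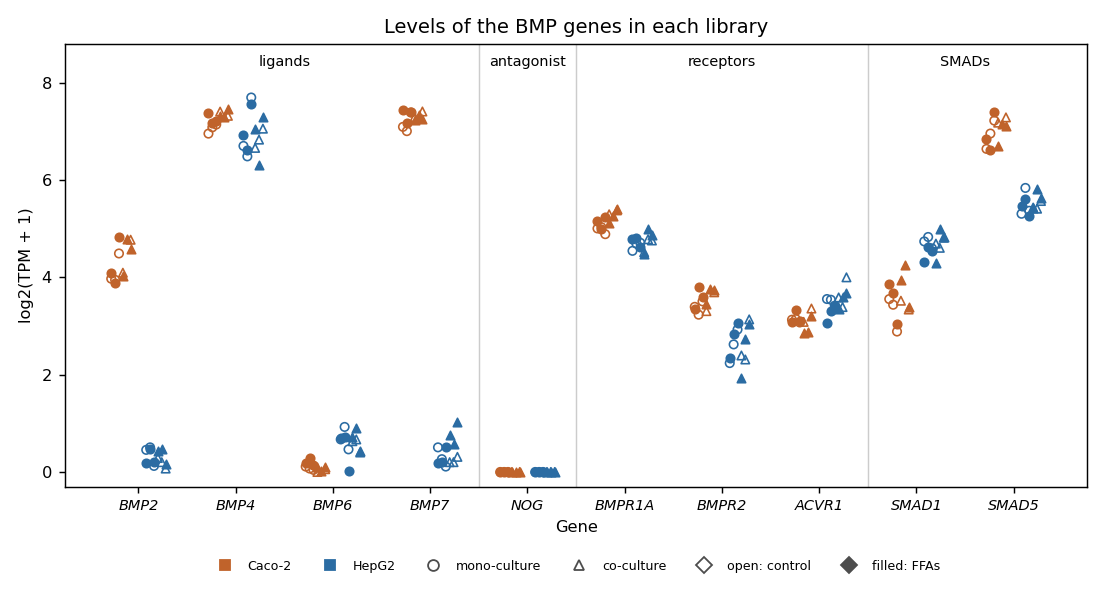
Level of each BMP gene in each of the 23 libraries, as log2(TPM + 1) on the vertical axis and genes in the order of their roles on the horizontal axis. Each point is 1 library (Caco-2 orange, HepG2 blue, circles mono-culture, triangles co-culture, open control, filled FFAs), and BMP2 and BMP7 stand near 4 to 7 in Caco-2 but near or below 1 in HepG2, while BMP4 is near 7 in both.

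BMP4 was the most abundant BMP ligand of HepG2 and shared the highest ligand levels of Caco-2 with BMP7. BMP4, a ligand close in sequence to BMP2, ranged from 123 to 176 TPM in Caco-2 (152 ± 15.8, SD, n = 11) and from 78.4 to 207 TPM in HepG2 (127 ± 39.8, SD, n = 12), and the ranges overlapped. BMP7, a ligand that also signals through ACVR1, ranged from 128 to 172 TPM in Caco-2 (155 ± 14.5, SD, n = 11) and from 0.08 to 1.03 TPM in HepG2 (0.349 ± 0.283, SD, n = 12). BMP2 ranged from 13.8 to 27.6 TPM in Caco-2 and from 0.05 to 0.42 TPM in HepG2. Every Caco-2 library exceeded every HepG2 library for both genes, with mean TPM 443-fold higher for BMP7 and 82.9-fold higher for BMP2. By condition the ratio of means ran from 208 (co-culture with FFAs) to 905 (co-culture control) for BMP7 and from 57.6 (mono-culture control) to 152 (co-culture control) for BMP2. BMP6 did not exceed 0.22 TPM in Caco-2 and 0.90 TPM in HepG2, so the ligand known for hepcidin control was near the lower end of detection in both lines.

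The sum of the 4 ligands was 327 ± 29.7 TPM (SD, n = 11) in Caco-2 and 128 ± 39.5 TPM (SD, n = 12) in HepG2, from 274 to 355 and from 80.2 to 207 TPM. BMP4 made up 42.7 to 50.03% of that sum in Caco-2 and 97.8 to 99.7% in HepG2. The make-up therefore differed in every library, with a mixture of BMP4, BMP7 and some BMP2 in Caco-2 and BMP4 nearly alone in HepG2.

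**Figure D2:**
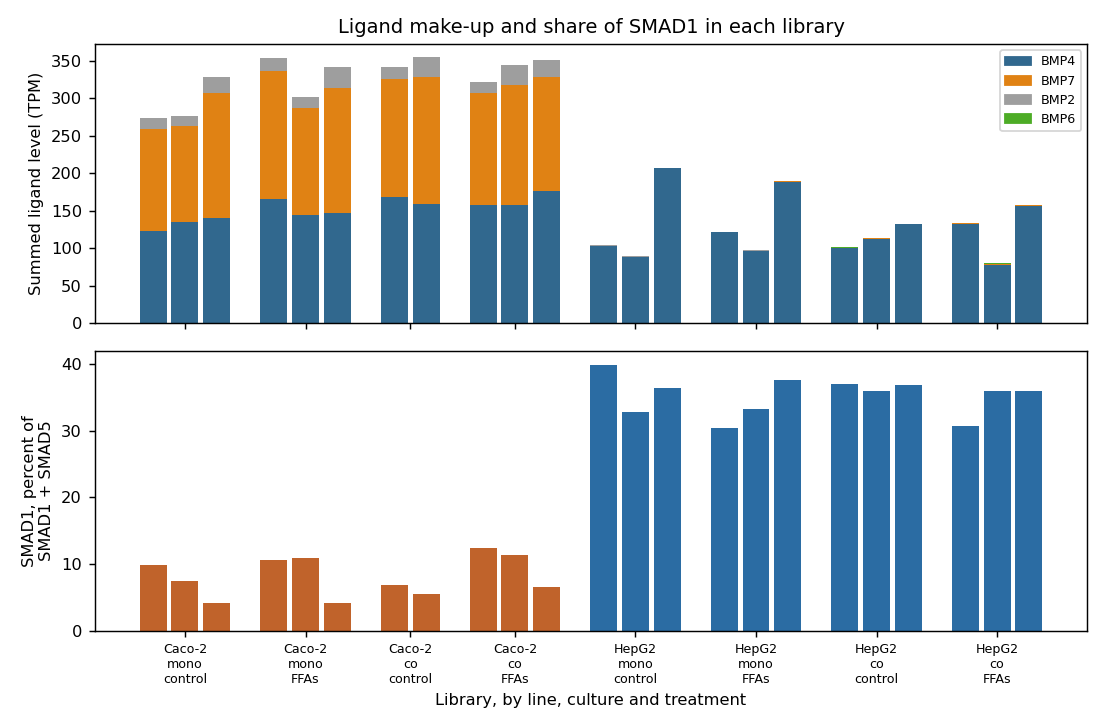
Upper panel, summed level of the 4 ligands in TPM for each library, stacked by ligand. Lower panel, SMAD1 as a percent of SMAD1 plus SMAD5 in the same libraries. Each bar is 1 library and bars are grouped by line, culture and treatment. BMP4 is 42.7 to 50.03% of the ligand sum in Caco-2 and 97.8 to 99.7% in HepG2, and SMAD1 is 4.12 to 12.3% and 30.5 to 40.0% of the pair.

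NOG, the secreted antagonist, was listed at 0 TPM in all 23 libraries. No fold change or test can be given for it.

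The receptors differed less between the lines than BMP2 and BMP7 did. BMPR1A, a type I receptor for BMP2 and BMP4, ranged from 28.6 to 41.6 TPM in Caco-2 and from 21.5 to 30.9 TPM in HepG2, and the ranges overlapped. BMPR2, the type II receptor, ranged from 8.41 to 12.97 TPM in Caco-2 (10.7 ± 1.61, SD, n = 11) and from 2.82 to 7.80 TPM in HepG2 (5.39 ± 1.64, SD, n = 12), with no overlap. ACVR1, a type I receptor used by BMP6 and BMP7, ranged from 6.26 to 9.27 TPM in Caco-2 and from 7.34 to 15.0 TPM in HepG2, and these ranges overlapped. Within each line the type I receptor BMPR1A stood above both others in every library, by mean levels of 35.1 against 10.7 and 7.71 TPM in Caco-2 and 25.4 against 5.39 and 10.4 TPM in HepG2. BMPR2 was thus the lowest of the 3 receptors in HepG2 and ACVR1 the lowest in Caco-2 by their means.

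The transducers went in opposite directions. SMAD5 ranged from 97.3 to 169 TPM in Caco-2 and from 37.1 to 56.3 TPM in HepG2, whereas SMAD1 ranged from 6.40 to 18.2 TPM in Caco-2 and from 18.7 to 31.0 TPM in HepG2. Neither pair of ranges overlapped, so every Caco-2 library was above every HepG2 library for SMAD5 and below for SMAD1. SMAD1 made up 4.12 to 12.3% of the summed SMAD1 and SMAD5 level in Caco-2 and 30.5 to 40.0% in HepG2. SMAD5 exceeded SMAD1 in every library of both lines.

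The line comparison asked which members differ between gut and liver cells in each of the 4 conditions. It was tested with limma on log2(TPM + 1) in 1 fit of all 8 groups, and a gene was called where its Benjamini-Hochberg adjusted p, over the 16495 genes that averaged at least 1 TPM in at least 1 group, fell below 0.05. BMP6 and NOG did not pass that filter, so 8 members were tested. BMP2, BMP7, BMPR1A, BMPR2 and SMAD5 were higher in Caco-2 in each condition, which is 5 of 8 beside 39% of all genes in mono-culture control, 39.3% in mono-culture with FFAs, 39% in co-culture control and 39.7% in co-culture with FFAs. SMAD1 was lower in Caco-2 in each condition and ACVR1 in 3 of them, beside 23.4, 21.8, 19.8 and 21.3% of all genes in the same order. The lines differed at most genes, so these shares are the background against which the counts stand. Across the same 8 members, 4 had every Caco-2 library above every HepG2 library, beside 28.6% of all genes, and 1 (SMAD1) had every Caco-2 library below, beside 14.1% of all genes.

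In log2 difference (Caco-2 minus HepG2), BMP7 ranged from 6.49 to 7.12 over the 4 conditions and BMP2 from 3.78 to 4.25, values that understate the ratio because the added 1 TPM is larger than most HepG2 levels of these genes. SMAD5 was higher by 1.36 to 1.76 and SMAD1 differed by -1.43 to -0.84, and both calls held in all 4 conditions under each of 32 alternative fits. BMPR2 was higher by 0.78 to 1.08 (adjusted p 0.00197 to 0.0178, limma) and BMPR1A by 0.33 to 0.65 (adjusted p 0.000544 to 0.0305, limma). ACVR1 differed by -0.39 (SE 0.16) in mono-culture control, by -0.44 (SE 0.18) in co-culture control and by -0.55 (SE 0.16) in co-culture with FFAs, and was not called in mono-culture with FFAs (-0.09, 95% interval -0.42 to 0.24, adjusted p 0.64, limma), although quantile normalization called it there (-0.39, adjusted p 0.0369, limma). BMP4 was not called in any condition, with differences of 0.10 (95% interval -0.47 to 0.66), 0.22 (-0.35 to 0.78), 0.51 (-0.12 to 1.15) and 0.47 (-0.10 to 1.04) in the order mono-culture control, mono-culture with FFAs, co-culture control and co-culture with FFAs. A fit of only the 2 groups compared called BMP4 in co-culture control (0.51, adjusted p 0.0187, limma) and did not call ACVR1 there (adjusted p 0.15, limma).

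The median over all genes was itself 0.20 to 0.27 higher in Caco-2 on the log2 scale, and scaling the libraries to each other moved it by -0.27 to -0.16. Relative to that shift BMPR1A stood out little: in mono-culture control its difference fell to 0.14 with median-of-ratios scaling and 0.09 with quantile normalization (adjusted p 0.34 and 0.51, limma), and BMP4 turned to -0.10 and -0.09. BMPR2 was 0.61 and 0.54 in mono-culture control under the same scalings (adjusted p 0.0594 and 0.0858, limma) and 0.65 and 0.50 in co-culture control (adjusted p 0.0775 and 0.161, limma). In mono-culture with FFAs it was 0.56 with quantile normalization (adjusted p 0.0762, limma), and in co-culture with FFAs it was called under both. Of the 7 members called in mono-culture control, 4 were called without HepG2 mono-culture control replicate 1, where ACVR1, BMPR1A and BMPR2 were the ones lost. In that condition ACVR1 was also lost without any 1 of the 3 Caco-2 libraries, without HepG2 replicate 2 and with no filter, BMPR1A without Caco-2 replicate 1 or 2, and BMPR2 without Caco-2 replicate 3. In co-culture control ACVR1 was lost without Caco-2 replicate 1 and without HepG2 replicate 1 or 3, and BMPR2 without Caco-2 replicate 2 and without HepG2 replicate 1 or 2. BMPR2 was lost in mono-culture with FFAs without HepG2 replicate 1, and BMPR1A was lost under both scalings there and in co-culture with FFAs. In co-culture control BMPR1A stayed called under both scalings (0.39 each, adjusted p 0.0199 and 0.0167, limma). The ACVR1 differences grew with median-of-ratios and quantile scaling. They were -0.56 and -0.63 in mono-culture control, -0.68 and -0.80 in co-culture control, and -0.77 and -0.92 in co-culture with FFAs, all called (adjusted p 4.36e-05 to 0.00416, limma).

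**Figure D3:**
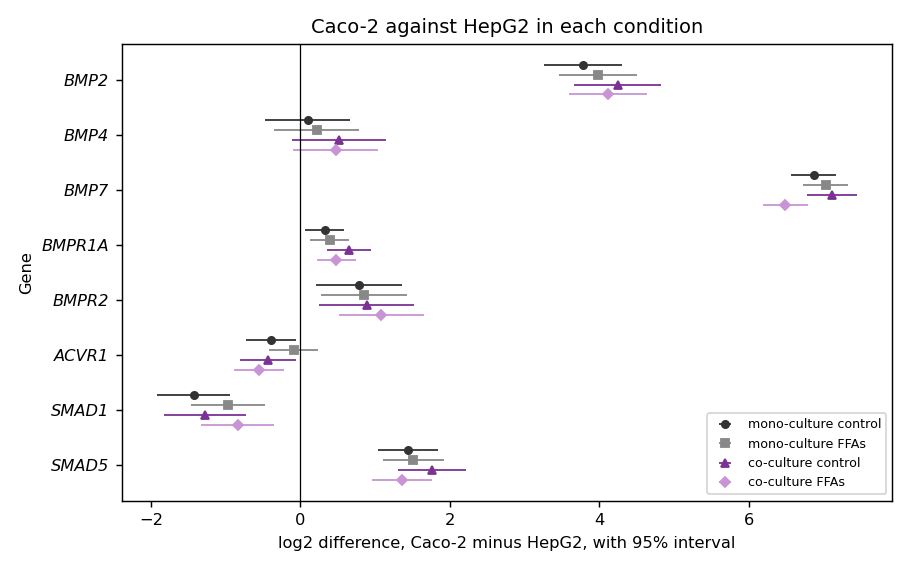
Log2 difference between Caco-2 and HepG2 on the horizontal axis for the 8 tested members, in each of the 4 conditions. Points are limma estimates on log2(TPM + 1), bars their 95% intervals, and values right of 0 are higher in Caco-2. BMP7 lies between 6.49 and 7.12 and SMAD1 between -1.43 and -0.84, while every interval of BMP4 includes 0.

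Co-culture was compared with mono-culture to ask whether the circulating medium of the other line went with a change in these genes. In Caco-2 the 2 members with the smallest p were BMP4 and BMPR1A, and neither was called. BMP4 measured 123, 135 and 140 TPM in mono-culture control, 165, 144 and 147 TPM in mono-culture with FFAs, 169 and 159 TPM in co-culture control, and 158, 157 and 176 TPM in co-culture with FFAs. The mono-culture control libraries were the 3 lowest, and only 1 mono-culture library (FFAs, replicate 1) reached the range of the co-cultured ones. Averaged over treatments the difference was 0.21 on the log2 scale (SE 0.06, 95% interval 0.06 to 0.35), or 1.15-fold, with an unadjusted p of 0.00857 and an adjusted p of 0.342 (limma).

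BMPR1A in Caco-2 measured 31.1, 31.7 and 28.6 TPM in mono-culture control, 34.9, 31.1 and 37.0 TPM in mono-culture with FFAs, 38.4 and 40.6 TPM in co-culture control, and 33.7, 37.3 and 41.6 TPM in co-culture with FFAs. Control libraries separated by culture, and libraries with FFAs overlapped. The averaged difference was 0.24 (SE 0.08, 95% interval 0.07 to 0.42), or 1.18-fold, with an unadjusted p of 0.0115 and an adjusted p of 0.362 (limma). The summed HepG2 genes, multiplied by the HepG2 mono-culture control level, correspond to at most 2.76 TPM of BMP4 and 0.502 TPM of BMPR1A in any Caco-2 library. Without both co-cultured libraries numbered 1, a choice made after seeing the data, the differences were 0.20 for BMP4 and 0.30 for BMPR1A (adjusted p 0.347 and 0.248, limma).

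Of the 8 members tested in Caco-2, 0 were called by limma in the averaged co-culture comparison, where 0% of 15081 genes were called, and 2 (BMP4 and BMPR1A) had an unadjusted p below 0.05, as did 10.5% of all genes. The counts were 0 called and 2 below 0.05 in co-culture without FFAs, where 0.0199% of genes were called and 5.43% were below 0.05. They were 0 and 0 in co-culture with FFAs, where the shares were 0% and 6.09%. The median difference of the 8 members in the averaged comparison was 0.18, beside 0.03 over all genes. The other 6 members had averaged differences from -0.04 (ACVR1, 95% interval -0.29 to 0.21) to 0.25 (BMP2, -0.22 to 0.72), and SMAD1 stood at 0.24 (-0.20 to 0.68). These intervals include no change and, for BMP2 and SMAD1, differences above 0.67 on the log2 scale.

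By the criteria in the methods of the study, a one-way analysis of variance over the 4 groups of a line with an unadjusted p below 0.05 and a minimum log2 difference between any pair of group means, BMP4 (p 0.0193, largest difference 0.30) and BMPR1A (p 0.0343, largest difference 0.36) were called in Caco-2, where 3.08% of 31100 genes met the same criteria. That share covers all genes above 0 TPM in any library of the line, whereas 15081 passed the limma filter. Its many low genes can hardly reach the minimum difference, and the share over expressed genes was not computed. BMP6 had a p of 0.022 in Caco-2 (analysis of variance) but a largest difference of 0.18, under the minimum. The criteria were applied here to log2(TPM + 1), whereas the methods of the study give a log2 fold change and state no added 1. That 1 TPM outweighs BMP6 levels, whose group means were 0.02 TPM in co-culture control and 0.153 TPM in mono-culture with FFAs. None of BMP4, BMPR1A and BMP6 passed adjustment over all genes (adjusted p 0.901 for each, analysis of variance). In the same libraries 2 of 8 liver markers (FGB and FGG), 1 of 8 Caco-2 markers (SI) and 1 of 8 markers of other cells (PDGFRA) met these criteria. FGB measured 147 to 221 TPM in co-cultured and 39.3 to 118 TPM in mono-cultured Caco-2, FGG 595 to 909 and 255 to 529 TPM, PDGFRA 12.99 to 19.5 and 11.2 to 14.9 TPM, and SI 9.33 to 16.6 and 4.23 to 9.81 TPM. All 8 liver markers had positive averaged co-culture differences (median 0.30), and their part in the result was not tested. The count of 2 fell to 0 without mono-culture control replicate 1 or without replicate 2 of that group, and to 1 without any 1 of 5 other libraries (co-culture with FFAs replicate 2, either co-culture control library, mono-culture with FFAs replicate 1 and mono-culture control replicate 3).

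**Figure D4:**
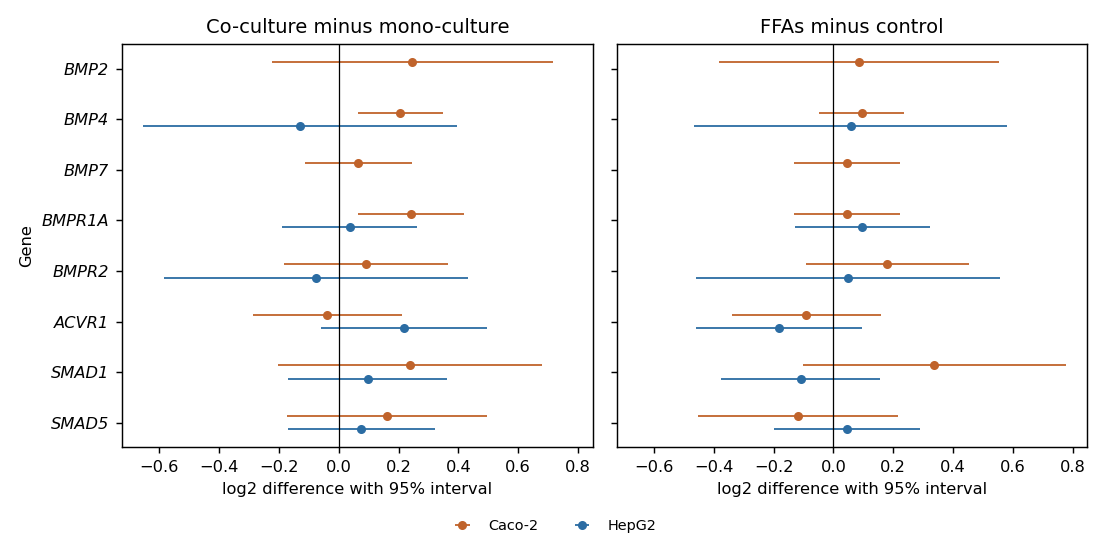
Log2 difference of each tested member for co-culture against mono-culture (left, averaged over treatments) and for FFAs against control (right, averaged over cultures), with Caco-2 in orange and HepG2 in blue. Points are limma estimates on log2(TPM + 1) and bars their 95% intervals. BMP4 and BMPR1A of Caco-2 lie right of 0 on the left (0.21 and 0.24), and BMP2 and BMP7 were not tested in HepG2.

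In HepG2 none of the 6 tested members was called in co-culture (limma, 0 at an unadjusted p below 0.05), where 0.0561% of 14255 genes were called in the averaged comparison and 0% in each single treatment. Over all genes, 12.5% had an unadjusted p below 0.05 (limma) in the averaged comparison, 7.53% without FFAs and 5.63% with FFAs. The largest averaged difference was that of ACVR1, 0.22 (SE 0.13, 95% interval -0.06 to 0.49, adjusted p 0.511, limma). ACVR1 measured 10.8, 10.6 and 9.70 TPM in mono-culture control, 7.34, 8.98 and 9.58 TPM in mono-culture with FFAs, 11.03, 9.49 and 15.0 TPM in co-culture control, and 9.17, 11.1 and 11.9 TPM in co-culture with FFAs. Its groups overlapped, and co-culture control replicate 3 was the highest library. BMPR1A differed by 0.04 (95% interval -0.19 to 0.26), SMAD5 by 0.08 (-0.17 to 0.32) and SMAD1 by 0.10 (-0.17 to 0.36). BMP4 (-0.13, -0.65 to 0.39) and BMPR2 (-0.07, -0.58 to 0.43) had the widest intervals.

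The spread of BMPR2 in HepG2, and in part that of BMP4, followed the library numbers. BMP4 measured 103, 88.8 and 207 TPM in mono-culture control, 121, 96.8 and 189 TPM in mono-culture with FFAs, 100.4, 113 and 132 TPM in co-culture control, and 133, 78.4 and 157 TPM in co-culture with FFAs. Replicate 3 was the highest of its group in 4 of 4 groups for BMP4, and for BMPR2 as well. BMPR2 measured 6.61 to 7.80 TPM in the 4 libraries numbered 3, 3.97 to 6.10 TPM in those numbered 2, and 2.82 to 4.26 TPM in those numbered 1. In Caco-2 BMP4 ranged from 140 to 176 TPM in the libraries numbered 3 and from 123 to 169 TPM in those numbered 1, and SMAD1 was lowest in the libraries numbered 3 (6.40 to 9.55 TPM, beside 10.5 to 14.4 TPM in those numbered 1 and an overlapping 9.13 to 18.2 TPM in those numbered 2). The HepG2 libraries numbered 3 also had the most genes above 0 TPM (21588 to 22416, beside 19259 to 20873 in the others). BMP6 was instead highest in replicate 2 in 4 of 4 HepG2 groups. The labels do not say what a shared number stands for.

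**Figure D5:**
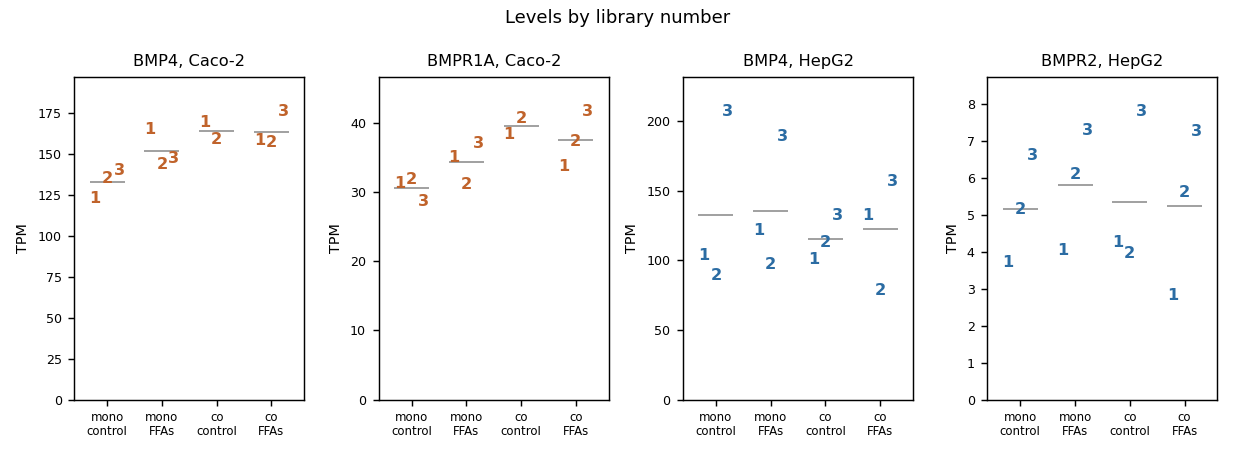
Level in TPM of BMP4 and BMPR1A in Caco-2 and of BMP4 and BMPR2 in HepG2, by culture and treatment. Each digit is 1 library, written as its replicate number, and grey lines are group means. The digit 3 is the highest in all 4 HepG2 groups for BMP4 and BMPR2, and the 3 mono-culture controls are the lowest Caco-2 libraries for BMP4.

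FFAs were compared with control to ask whether the fatty acid load itself went with a change. No member was called in any FFAs comparison (limma). In Caco-2, 0 of 8 members were called and 1 (BMP4) had an unadjusted p below 0.05 in mono-culture, where 0% of genes were called and 2.61% were below 0.05. In co-culture 0 were called and 0 were below 0.05, where the shares of all genes were 0.0199% and 2.83%. Averaged over cultures the counts were 0 and 0, beside 0% and 3.99% of all genes. In HepG2, 0 of 6 members were called and 0 had an unadjusted p below 0.05 in mono-culture, in co-culture or on average, where 0% of genes were called each time. Of all genes, 2.24, 1.84 and 3.49% were below 0.05 in that order. BMP4 in mono-cultured Caco-2 was higher with FFAs by 0.19 (SE 0.09, 95% interval 0.00391 to 0.383, unadjusted p 0.0462, adjusted p 1, limma). The averaged differences ran from -0.12 (SMAD5) to 0.34 (SMAD1, 95% interval -0.10 to 0.78) in Caco-2 and from -0.18 (ACVR1, -0.46 to 0.10) to 0.10 (BMPR1A, -0.13 to 0.32) in HepG2.

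Tests of differences between effects called 0 members. The effect of FFAs did not pass the threshold for a difference between cultures at any of the 8 Caco-2 or 6 HepG2 members (limma, 0 at an unadjusted p below 0.05 in either line, with 0% of genes called in both). Of all genes, 1.94% in Caco-2 and 1.16% in HepG2 had an unadjusted p below 0.05 (limma) in that test. The co-culture effect averaged over treatments was compared between the lines for 8 members. Of these, 0 were called and 0 had an unadjusted p below 0.05 (limma), where the shares of all genes were 0.533% and 14.6%. The difference of effects (Caco-2 minus HepG2) was 0.34 for BMP4 (95% interval -0.25 to 0.92), 0.21 for BMPR1A (-0.07 to 0.48) and -0.26 for ACVR1 (-0.60 to 0.09). Co-cultured libraries of both lines may come from the same chips, which the labels do not say. The fit of all 8 groups treats them as independent, here and in the line comparisons in co-culture. Pairing across lines was not examined.

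BMP7 was the 1 member that met the analysis of variance criteria in HepG2 (p 0.0176, largest difference 0.55, adjusted p 0.898), where 3.56% of 29942 genes above 0 TPM met them. It measured 0.42, 0.20 and 0.08 TPM in mono-culture control, 0.14, 0.16 and 0.43 TPM in mono-culture with FFAs, 0.15, 0.15 and 0.24 TPM in co-culture control, and 0.70, 0.49 and 1.03 TPM in co-culture with FFAs. The libraries of co-culture with FFAs were the 3 highest, and the call was lost without replicate 1 or without replicate 3 of that group and with a filter of at least 1 TPM. The summed Caco-2 genes in these 3 libraries, multiplied by the BMP7 level of Caco-2 mono-culture control, correspond to 0.882, 0.404 and 0.774 TPM. In the other co-cultured HepG2 libraries the same product was 0.325, 0.361 and 0.273 TPM, and in the mono-cultured ones 0.185 to 0.350 TPM. The measured levels and these products overlapped in range. In the HepG2 libraries 1 of 8 Caco-2 markers (CDH17, also among the summed genes) and 3 of 8 liver markers (FGB, FGG and TF) met the same criteria. CDH17 averaged 1.71 TPM in co-culture with FFAs, 0.317 TPM in co-culture control and in mono-culture with FFAs, and 0.397 TPM in mono-culture control. The part of Caco-2 RNA in the result was not tested. For BMP2 the products did not exceed 0.104 TPM, while the measured level reached 0.42 TPM in a mono-cultured library.

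Of 52 other genes of the pathway, 36 were tested in the line comparison, and 13 were higher and 9 lower in Caco-2 in mono-culture control, shares near the 39% and 23.4% of all genes. The highest other ligands were BMP8A in Caco-2 (4.53 ± 0.834 TPM, SD, n = 11, with reads that its near copy BMP8B could share) and GDF7 in HepG2 (3.12 ± 0.962 TPM, SD, n = 12), both far below BMP4. ACVR2A, a type II receptor that BMPs share with activins, was the highest other receptor in both lines and did not differ past the threshold (20.0 ± 2.01 and 21.3 ± 3.89 TPM, log2 difference -0.15, 95% interval -0.52 to 0.23, limma). It stood above BMPR2 in both lines. Among co-receptors, NEO1, which binds repulsive guidance molecules, led in Caco-2 (14.1 ± 2.02 TPM), and TFR2, an iron sensor of hepatocytes, led in HepG2 (116 ± 21.7 TPM, beside 4.48 ± 1.06 TPM in Caco-2).

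SMAD4, the partner of SMAD1 and SMAD5, was 40.5 ± 5.65 TPM in Caco-2 and 77.9 ± 12.2 TPM in HepG2 (log2 difference -1.08, SE 0.16, adjusted p 8.59e-06 in mono-culture control, limma). In Caco-2 it therefore lay below SMAD5, and in HepG2 above it. BAMBI, a pseudoreceptor that dampens the signal, was the highest intracellular or membrane inhibitor in both lines (108 ± 18.7 and 50.6 ± 18.3 TPM). Of the secreted antagonists other than NOG, TWSG1 led in Caco-2 (47.2 ± 3.68 TPM, beside 7.87 ± 1.63 TPM in HepG2). FST, which encodes follistatin, led in HepG2, from 112 to 646 TPM, beside 0.16 to 2.22 TPM in Caco-2, with a log2 difference of -8.64 (SE 0.53) in mono-culture control. PCSK6, a convertase that cleaves TGF-beta family precursors, led the processing enzymes in both lines (72.8 ± 10.1 and 83.8 ± 10.96 TPM). In these sentences n is 11 for Caco-2 and 12 for HepG2.

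In the TGF-beta and activin branch 5 of 13 tested genes were higher and 6 lower in Caco-2 in mono-culture control, beside the same 39% and 23.4% of all genes. TGFB1 was the highest ligand in Caco-2 (12.6 ± 1.86 TPM) and INHBE, an activin subunit of the liver, in HepG2 (27.2 ± 15.1 TPM), both below BMP4. TGFBR2, the type II receptor for TGF-beta, was the highest receptor in both lines (60.7 ± 8.59 and 246 ± 34.1 TPM), and SMAD2 the higher of the transducers SMAD2 and SMAD3 (39.1 ± 2.85 and 55.2 ± 3.49 TPM). Within a line, 1 gene of these lists was called by limma, SMAD7 in co-cultured HepG2 (0.89, SE 0.12, adjusted p 0.0249, limma), among 30 other BMP genes and 10 of the TGF-beta branch tested there. No gene of either list was called by limma in Caco-2 in the averaged co-culture comparison, where 5 of 32 and 2 of 12 had an unadjusted p below 0.05 beside 10.5% of all genes, or in the averaged FFAs comparison, where 2 of 32 and 0 of 12 did beside 3.99%. The analysis of variance criteria were met by 4 of 47 other BMP genes in Caco-2 (BMP1, CHRD, GDF7 and SMAD7, beside 3.08% of all genes), by 3 of 48 in HepG2 (FURIN, GREM1 and SMAD7, beside 3.56%) and by 0 of 14 genes of the TGF-beta branch in either line. These names were chosen after their values were seen.

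Of 10 listed genes that SMAD1 and SMAD5 are known to induce, 8 were tested in HepG2. In averaged co-culture 3 rose (HAMP by 4.99, ID2 by 0.92 and SMAD7 by 0.89 on the log2 scale, adjusted p 0.00953, 0.0128 and 0.0249, limma), where 0.0561% of all genes were called. The median was 0.90 over the 8 beside -0.02 over all genes. SMAD7 stands both on this list and on that of the other pathway genes. HAMP measured 15.5 to 153 TPM in the 6 co-cultured and 0 to 5.43 TPM in the 6 mono-cultured HepG2 libraries, while the 6 tested members of the pathway had a median difference of 0.06 in the same comparison. In Caco-2, 7 of the listed targets were tested in averaged co-culture and 0 were called, where 0% of genes were called. All 7 had positive differences (median 0.32, beside 0.03 over all genes). An unadjusted p below 0.05 (limma) was found for 3 of them, beside 10.5% of all genes.

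The genes whose levels went most with BMP4 over the 11 Caco-2 libraries were AC245096.1 (Pearson r 0.91), CCL20 (0.91), AC006504.5 (0.90), CSPP1 (0.86) and YPEL1 (0.86). Over the 12 HepG2 libraries, ACVR1 went most with PDLIM3 (0.96), POLR3C (0.95), RBCK1 (0.93), INPP1 (0.93) and TMEM167B (0.93). These are the highest values over all genes tested in a line, on log2(TPM + 1) and from libraries that share their groups, and are given as a description.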

How the data were processed

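The deposited files hold 1 TPM value per gene and library. According to the labels and methods, RNA was amplified with a SMART-Seq v4 kit, the authors removed rRNA, tRNA and mitochondrial reads with Bowtie2 2.1.0, mapped the rest to GRCh38 with STAR 2.7.1a and Ensembl genes, and the authors computed TPM with RSEM 1.3.0. The extraction text of the labels names myoblasts, so the lines were checked by their markers. No counts were used, so depth is unknown, and 19259 to 23689 genes were above 0 TPM per library. Groups came from the labels.

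Members, gene lists and the averaged comparisons were chosen with earlier results of these data known. Values were tested as log2(TPM + 1) with limma 3.58.1 (R 4.3.3, trend) on genes of at least 1 TPM on average in at least 1 group, per line over 4 groups and over 8 groups for line comparisons, with Benjamini-Hochberg adjustment across all genes tested, and by the one-way analysis of variance of the study on genes above 0 TPM. On simulated data a log2 change of 0.5 was recovered in 34% of 200 changed genes among 15081 for averaged co-culture in Caco-2, 21% among 14255 in HepG2 and 8.5% among 16495 for the lines, and a change of 1 in 85.5, 84.5 and 70%. In the data 0 and 8 genes were called for averaged co-culture in Caco-2 and HepG2, and 10286 between lines in mono-culture control. The adjusted threshold depends on how many genes differ, so the simulated shares do not give the power in the data. Tables were prepared with Python 3.11.15 (pandas 2.3.3). Named were all 10 members, of the other lists the gene with the highest mean per role and line and every gene past the adjusted limma threshold within a line, and the 5 genes most like the member with the smallest averaged co-culture p in each line. Alternatives were a pseudocount of 0.1 TPM, filters of none and 5 TPM, 2 scalings, limma without trend, only the groups compared, a replicate block and each library left out. Protein sequences of paralogs were not used here.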

Additional observations from a re-analysis of the deposited data

Results flagged for a closer look

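The co-culture effect on HAMP differed between the lines by the test of that difference (-3.84 on the log2 scale, Caco-2 minus HepG2, SE 0.78, adjusted p 0.033, limma), with an effect of 1.15 in Caco-2 and 4.99 in HepG2. HAMP did not exceed 5.18 TPM in Caco-2, and the co-cultured Caco-2 libraries with the highest HAMP, both numbered 1, were also those with the highest sums of HepG2 genes.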

How the results depend on the processing

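No member was called within a line, or for a difference of effects, under any limma alternative (lowest adjusted p 0.149 in Caco-2, 0.304 in HepG2 and 0.285 between lines), and the BMP2, BMP7, SMAD1 and SMAD5 calls between lines held in all. In the analysis of variance the Caco-2 count of 2 became 0 with adjusted p and 0 with median-of-ratios scaling, and the HepG2 count of 1 became 0 with adjusted p and 0 with filters of 1 or 5 TPM. With each library left out these counts ran from 0 to 2 and from 0 to 1, and the mono-culture control count between lines from 4 to 7. Some differences that were not called changed sign. Others kept it, such as BMP4 (0.17 to 0.24) and BMPR1A (0.21 to 0.30) in Caco-2 for averaged co-culture. Median-of-ratios and quantile scaling turned BMP4 between lines in mono-culture control to -0.096 and -0.093, and leaving out libraries moved it from -0.14 to 0.47. In co-culture, leaving out libraries moved ACVR1 in Caco-2 from -0.11 to 0.031 (0.063 without both co-cultured libraries numbered 1, chosen after seeing the data), BMPR2 in Caco-2 from -0.0051 to 0.19, BMP4 in HepG2 from -0.25 to 0.054, BMPR1A in HepG2 from -0.015 to 0.11 and BMPR2 in HepG2 from -0.21 to 0.084. For FFAs it moved BMP2 in Caco-2 from -0.084 to 0.26, BMP4 in HepG2 from -0.076 to 0.24, BMPR2 in HepG2 from -0.072 to 0.21 and SMAD5 in HepG2 from -0.0040 to 0.13. With a limit of 0.1 TPM for the opposite line, 7 Caco-2 genes and no HepG2 gene qualified. Their sums were 0.00766 to 0.0843% in mono-cultured and 0.115 to 0.623% in co-cultured HepG2 libraries, with no overlap. Low sums in the mono-culture controls follow from the choice of genes, and mono-culture with FFAs had 0.0498 to 0.0843%. The cause of the changes above was not tested.

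The labels number replicates alike in all groups. Deviations of same-numbered libraries from their group means correlated by -0.0926 to 0.312 in Caco-2 (median 0.088, beside -0.12 for different numbers) and 0.0284 to 0.601 in HepG2 (median 0.30, beside -0.23), and by 0.46 to 0.60 among HepG2 libraries numbered 3. Deviations sum to 0 within a group, so the correlations of same and of different numbers are not independent of each other. Not every pair passed 0.1, so the numbers were not taken to pair the samples, although 7 of 11 Caco-2 and 10 of 12 HepG2 libraries correlated best with their own number. This choice does not show that the samples are unpaired. The 2 Caco-2 co-culture control libraries have mirror-image deviations, so the lowest value, -0.0926, is the 0.0926 of replicate 1 with mono-culture control replicate 2, reversed in sign. Outside that group, Caco-2 replicates 2 with FFAs in co-culture and mono-culture correlated by -0.0379. The replicate block changed no count of members called (0 in each within-line comparison, 7, 6, 7 and 7 between lines) but changed which members the co-culture control count holds, since BMP4 was gained (0.66, adjusted p 0.0197, limma) and ACVR1 lost (-0.39, adjusted p rounding to 0.05, limma), as also happened in a fit of only the groups compared. The block turned BMP2 with FFAs in Caco-2 to -0.00026. TPM without counts gives no depth, so precision rests on the 2 or 3 libraries of each group.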
